A study of Homo sapiens with 18 samples.

Results

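The 10 genes described here, SPHK1, SPHK2, SGPP1, SGPL1, ASAH1, CERS2, S1PR1, S1PR2, S1PR3 and S1PR5, make, remove or sense sphingosine 1-phosphate (S1P), a lipid that the ABC transporter ABCC1 is known to export. They were chosen by symbol and are 10 of the 57905 Ensembl genes counted in each library. RNA was sequenced from BE(2)-m17, a human neuroblastoma cell line, in 3 experiments with 6 libraries each. All cells carried the transposable vector pSBbi-Hyg-APP, which holds the amyloid precursor protein gene APP. The ABCC1-overexpressing cells also carried pSBbi-Pur-ABCC1(WT), a vector with codon-optimized ABCC1, and the control cells carried the empty vector pSBbi-Pur (Puro). Each experiment had 3 libraries per line, taken on the fourth day after plating. All cells grew in medium with 10% fetal bovine serum, changed daily. The vectors integrate at places that differ between cells, the labels name no clone, and the control insert encodes no transporter. The first experiment was prepared with a kit that selects mRNA according to the methods, although its labels also name the total RNA kit of the second and the third experiments. The labels do not say which of the second and the third experiments used cells thawed from a frozen stock and which used newly transfected cells. The methods describe no repeat transfection within an experiment, so libraries, not transfections, are the replicates of each test.

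S1P is made from sphingosine by the sphingosine kinases SPHK1 and SPHK2. It is either dephosphorylated by the phosphatase SGPP1, which returns it to sphingosine and, through ceramide synthases such as CERS2, to ceramide, or split irreversibly by the lyase SGPL1. Sphingosine itself comes from ceramide by ceramidases such as ASAH1. Outside the cell S1P acts on G protein-coupled receptors, among them S1PR1, best known from endothelium and lymphocytes, S1PR2 and S1PR3, which also signal to the cytoskeleton, and S1PR5, best known from oligodendrocytes and natural killer cells. Transporters carry S1P out of the cell, so that the kinases inside and the receptors outside are joined by an export step.

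Each library held 8866994 to 57937653 assigned read pairs, with 27433393 to 57937653 in the first experiment, 19577853 to 30996228 in the second and 8866994 to 13332413 in the third. These counts carry no molecular identifiers, so intervals of counting would cover counting error only. The inserted ABCC1 was read 328102 to 594404 times in the ABCC1-overexpressing libraries of the first experiment against 5 to 15 times in the controls, 84990 to 148783 against 2 to 8 times in the second, and 51035 to 58631 against 0 to 3 times in the third. Of the neuroblastoma markers, 9 of 9 were above background in every experiment and line, with summed levels of 180 to 270 CPM per kb (counts scaled to a common library size and divided by the kilobases of exon). Reads on olfactory receptor genes, 373 genes taken as silent in these cells, gave the background. It was 0.00481 ± 0.000393 CPM per kb (SD, n = 3) in the controls and 0.00404 ± 0.000291 in the ABCC1-overexpressing cells of the first experiment, 0.619 ± 0.127 and 0.287 ± 0.151 in the second, and 1.65 ± 0.242 and 1.19 ± 0.247 in the third. The background thus stood at 46.4% of the control level in the ABCC1-overexpressing cells of the second experiment and at 72.2% in the third. The lists of endothelial, blood and glial markers, whose cells are known for S1P receptors, summed to at most 0.0378 CPM per kb in any library of the first experiment. In the second and the third experiments the lists of blood and glial markers had 2 or 3 of their 5 genes under the background in each line. The 4 endothelial markers measured summed to 0.882 to 1.66 CPM per kb in the controls and 0.226 to 0.661 in the ABCC1-overexpressing cells of the second experiment, and to 2.53 to 3.37 and 2.05 to 2.78 in the third. The 5 fibroblast markers summed to 2.52 to 2.59 and 3.45 to 3.50 CPM per kb in the first experiment, 2.04 to 2.55 and 1.61 to 1.99 in the second, and 3.10 to 3.47 and 2.23 to 2.87 in the third. The part of these cells' markers in the receptor values was not tested. In bulk RNA, fewer cells of a kind and less RNA per cell cannot be told apart.

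ABCC1-overexpressing cells of the first experiment had more S1PR1 RNA and less S1PR3, SPHK1 and SGPL1 RNA than empty vector control cells. S1PR1 rose 1.96-fold, S1PR3 fell 1.72-fold, SPHK1 1.38-fold and SGPL1 1.18-fold. The calls of S1PR1 and S1PR3 held in 13 of 13 alternatives, whereas that of SPHK1 was lost in 6 of 13 and that of SGPL1 in 2 of 13. In the second and the third experiments 0 of the 10 genes passed the test. The log2 fold change (log2FC) of S1PR3 was below 0 in each experiment and called in the first. S1PR3 was also called for an effect common to the 3 experiments, but not without the first experiment (edgeR adjusted p = 0.197). The effect on S1PR1 differed between experiments (edgeR adjusted p = 0.0258), but this was not called with the replicate number as a block (adjusted p = 0.0946). The test was edgeR's quasi-likelihood test on the counts, with Benjamini-Hochberg adjustment over every gene tested, and a gene was called at an adjusted p of at most 0.05.

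In the first experiment 4 of the 9 genes that passed the filter on low counts were called, against 37.6% of all 16995 genes tested, so the share of called genes was near that of all genes. Of the 4, 1 was higher (17.9% of all genes) and 3 were lower (19.7% of all genes). An unadjusted p under 0.05 was reached by 5 of 9, against 46.6%. The CPM of the 2 lines did not overlap for the same 4 genes, as for 50.4% of all genes, of which 24.7% were higher and 25.7% lower. In the second experiment 0 of 10 were called, against 1.70% of all genes, and 0 of 10 had an unadjusted p under 0.05, against 21.2%. In the third experiment 0 of 10 were called, against 2.80%, and 2 of 10, S1PR1 and S1PR2, had an unadjusted p under 0.05, against 15.2%. The lines did not overlap for 1 gene in the second experiment, S1PR3, against 29.8% of all genes and 16.4% in its direction, and for 1 gene in the third, S1PR2, against 19.5% and 10.9% in its direction. The p-values measure the spread between these libraries, which may be technical in part. The methods describe cultures set up each week, but the labels tie no library to a week. Exact permutation tests of 3 libraries against 3 cannot go below 0.1.

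**Figure D1:**
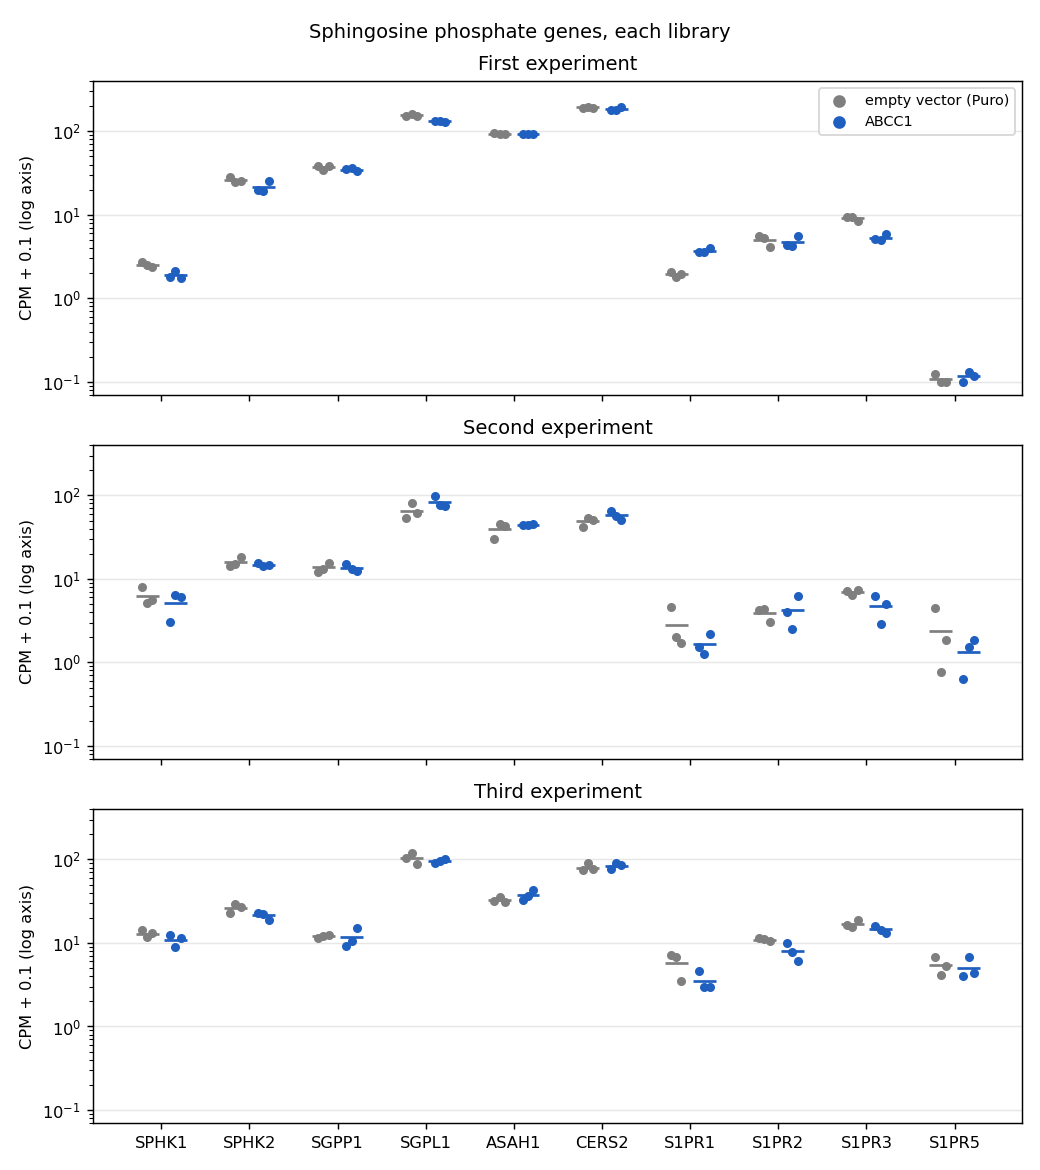
Normalized counts (CPM, with 0.1 added, log axis) of the 10 genes in each library, with 1 panel per experiment. Grey points are the 3 empty vector libraries, blue points the 3 ABCC1-overexpressing libraries, and bars their means. In the first experiment S1PR1 lies higher and S1PR3, SPHK1 and SGPL1 lie lower in every ABCC1-overexpressing library, and S1PR5 is near 0.

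S1PR1 (ENSG00000170989, chr1:101702444-101707074 on the plus strand of GRCh37) and S1PR3 (ENSG00000213694, chr9:91606362-91619925, plus strand) are the 2 receptors with called changes. Their upstream sequences are shown because these genes moved in opposite directions in the first experiment. Each is the 250 bases before a RefSeq start in GRCh38.p14, on the plus strand, at chr1:101236769-101237018 for S1PR1 and at chr9:88990613-88990862 and chr9:88991218-88991467 for the 2 starts of S1PR3. Capitals mark CACCC, the core of the sites of Krüppel-like factors, and GGGCGG, the core of the GC box, on either strand.
S1PR1: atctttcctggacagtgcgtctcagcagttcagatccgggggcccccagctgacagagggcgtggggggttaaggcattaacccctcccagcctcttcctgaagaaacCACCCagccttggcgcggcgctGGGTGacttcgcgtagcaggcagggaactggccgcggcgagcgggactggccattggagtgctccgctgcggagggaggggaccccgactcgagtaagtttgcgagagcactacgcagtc
S1PR3, start 1: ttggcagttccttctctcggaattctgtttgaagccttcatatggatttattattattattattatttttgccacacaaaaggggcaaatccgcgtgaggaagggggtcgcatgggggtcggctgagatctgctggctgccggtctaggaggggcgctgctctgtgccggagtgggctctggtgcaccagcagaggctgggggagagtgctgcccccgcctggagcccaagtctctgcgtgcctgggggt
S1PR3, start 2: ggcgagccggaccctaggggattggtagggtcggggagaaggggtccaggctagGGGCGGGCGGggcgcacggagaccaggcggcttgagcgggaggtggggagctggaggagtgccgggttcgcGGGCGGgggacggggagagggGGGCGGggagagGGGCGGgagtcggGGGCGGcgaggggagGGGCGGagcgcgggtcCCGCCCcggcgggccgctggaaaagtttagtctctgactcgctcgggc
The S1PR1 sequence held 2 matches to CACCC and 0 to GGGCGG. The sequence before start 1 of S1PR3 held 0 of either, and that before start 2 held 8 overlapping or separate matches to GGGCGG and 0 to CACCC. Of 35116 upstream sequences of this length, 54.7% held CACCC and 42.6% held GGGCGG. The 3 sequences had 64.4%, 57.2% and 76.4% G or C. A match describes these letters only, and the counts, taken per gene, do not tell which start of S1PR3 was used.

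S1PR1, a receptor that couples to inhibitory G proteins, had 1.95, 1.69 and 1.87 CPM in the control libraries of the first experiment and 3.52, 3.50 and 3.86 CPM in the ABCC1-overexpressing libraries. Every ABCC1-overexpressing library was above every control. The means were 1.84 ± 0.136 and 3.63 ± 0.203 CPM (SD, n = 3), from 46 to 85 and 113 to 224 counts per library. The log2FC was 0.97 (SE 0.12, edgeR adjusted p = 1.12e-04).

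S1PR1 in the second experiment had 4.51, 1.94 and 1.59 CPM in the controls and 1.41, 1.15 and 2.06 CPM in the ABCC1-overexpressing cells. The lines overlapped, and control replicate 1 stood above the other 5 libraries. The log2FC was -0.79 (SE 0.49, edgeR adjusted p = 0.351), and without control replicate 1 it was -0.17 (adjusted p = 0.925). In the third experiment the controls had 7.01, 6.71 and 3.44 CPM and the ABCC1-overexpressing cells 4.53, 2.84 and 2.89 CPM. Control replicate 3 fell among the ABCC1-overexpressing libraries, and the log2FC was -0.75 (SE 0.32, edgeR adjusted p = 0.212). The effect of the first experiment was the opposite of these values. It differed between experiments in a fit of all 18 libraries (edgeR adjusted p = 0.0258), with the log2FC lower by 1.84 in the second and by 1.75 in the third experiment than in the first. Blocking on the replicate number lost this call (edgeR adjusted p = 0.0946). S1PR1 was 1 of 10 genes called for such a difference, against 1.19% of the 46225 genes tested.

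Background reads were set beside the S1PR1 level of each line. Olfactory receptor genes reached 0.815% of the S1PR1 level per kilobase in the controls and 0.341% in the ABCC1-overexpressing cells of the first experiment. They reached 78.2% and 61.7% in the second experiment and 94.9% and 114% in the third. S1PR1 in the third experiment was thus not distinguishable from background reads. The background of the 2 lines did not overlap in the first and the second experiments, with the ABCC1-overexpressing cells lower, and overlapped in the third. With the background of each library as a covariate, the log2FC of S1PR1 was 0.88 in the first experiment (edgeR adjusted p = 0.0303), -0.19 in the second (0.990) and -0.57 in the third (0.690).

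S1PR3, a receptor that couples to several classes of G protein, had 9.45, 9.22 and 8.44 CPM in the controls of the first experiment and 5.04, 4.87 and 5.76 CPM in the ABCC1-overexpressing cells. All 3 ABCC1-overexpressing libraries were below all 3 controls. The means were 9.03 ± 0.530 and 5.22 ± 0.473 CPM (SD, n = 3). The log2FC was -0.78 (SE 0.09, edgeR adjusted p = 8.86e-05).

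S1PR3 in the second experiment had 7.07, 6.26 and 7.22 CPM in the controls and 6.15, 2.75 and 4.90 CPM in the ABCC1-overexpressing cells. The lines did not overlap, with ABCC1-overexpressing replicate 1 next to the lowest control. The log2FC was -0.57 (SE 0.30, edgeR adjusted p = 0.275) and ran from -0.82 to -0.30 without 1 library. For the third experiment, the controls had 16.2, 15.3 and 19.0 CPM and the ABCC1-overexpressing cells 15.9, 14.3 and 13.04 CPM. The lines overlapped, and the log2FC was -0.22 (SE 0.18, edgeR adjusted p = 0.609). Background reached 73.4% and 67.9% of the S1PR3 level per kilobase in the controls and ABCC1-overexpressing cells of the second experiment, 82.3% and 75.3% in the third, and at most 0.678% in the first. Above background, the S1PR3 level was 0.219 ± 0.0418 CPM per kb (SD, n = 3) in the controls and 0.200 ± 0.259 in the ABCC1-overexpressing cells of the second experiment, and 0.364 ± 0.172 and 0.385 ± 0.0491 in the third, and the lines overlapped in both. With the background covariate, the log2FC of the third experiment was 0.00319, that of the second was -0.91 (edgeR adjusted p = 0.782), and that of the first was -0.73 (edgeR adjusted p = 0.0287).

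The effect on S1PR3 common to the 3 experiments was a log2FC of -0.46 (SE 0.13, edgeR adjusted p = 0.00921). It was 1 of 10 genes called for a common effect, against 12.4% of all genes, and 3.72% of all genes were called lower. Without the first experiment the log2FC was -0.35 and no longer called (edgeR adjusted p = 0.197), so the call rests on the first experiment. A difference of its effect between experiments was not called (edgeR adjusted p = 0.767). Of the S1PR3 exon bases, 2.58% are shared with another gene on the same strand, ENSG00000186354.

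In the first experiment the changes in S1PR1 and S1PR3 turned the order of these receptors around. The level per kilobase of S1PR1 was 0.581 ± 0.0554 times that of S1PR3 in the controls (SD, n = 3) and 1.98 ± 0.0701 times in the ABCC1-overexpressing cells, with ranges of 0.522 to 0.632 and 1.91 to 2.05 that did not overlap. This ratio rests on the same counts as the tests above. The ratio was 1.11 ± 0.626 and 1.01 ± 0.311 in the second experiment, and in the third 0.999 ± 0.418 and 0.670 ± 0.127, and the lines overlapped in both.

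S1PR2 (ENSG00000267534, chr19:10334520-10341948, minus strand), a receptor known to restrain cell migration, had the highest level per kilobase of the 4 receptors in every experiment and line. Its means were 4.87 ± 0.772 and 4.61 ± 0.787 CPM in the first experiment (SD, n = 3, log2FC -0.07, edgeR adjusted p = 0.733) and 3.80 ± 0.704 and 4.17 ± 1.90 CPM in the second (log2FC 0.14, adjusted p = 0.847). In the third experiment the controls had 11.3, 10.98 and 10.3 CPM and the ABCC1-overexpressing cells 9.91, 7.65 and 5.94 CPM. The lines did not overlap, but the log2FC of -0.47 (SE 0.23) did not pass the adjusted test (edgeR adjusted p = 0.290). Background came to at most 19.0% of its level in any experiment. Of its exon bases 5.88% are shared with DNMT1, which lies on the same strand.

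S1PR5 (ENSG00000180739, chr19:10623623-10628607, minus strand) had 1, 0 and 0 counts in the controls and 0, 1 and 1 in the ABCC1-overexpressing cells of the first experiment, at or under the 3 counts treated as no signal, and was not tested there. In the second experiment it had 4.42, 0.669 and 1.73 CPM in the controls and 0.535, 1.42 and 1.77 CPM in the ABCC1-overexpressing cells, a log2FC of -0.86 (SE 0.60, edgeR adjusted p = 0.407). In the third experiment the means were 5.31 ± 1.28 and 4.92 ± 1.48 CPM (SD, n = 3, log2FC -0.11, adjusted p = 0.901). Background reads reached 105% and 64.8% of its level per kilobase in the controls and ABCC1-overexpressing cells of the second experiment and 79.6% and 69.9% in the third. S1PR5 was thus near background in all 3 experiments.

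**Figure D2:**
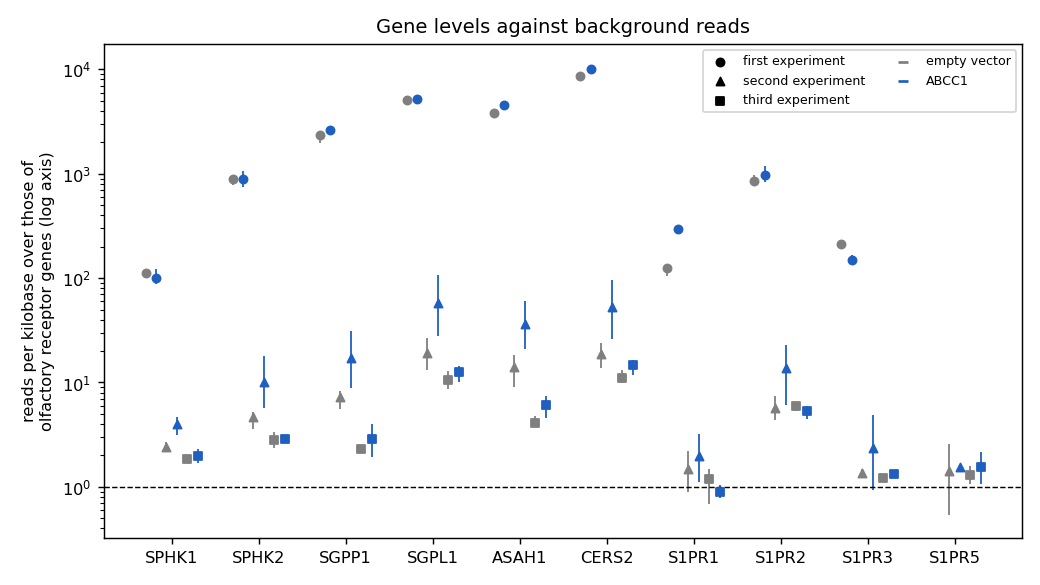
Level per kilobase of exon of each gene divided by that of olfactory receptor genes in the same library (log axis). Points are means of 3 libraries and lines run from the lowest to the highest library, grey for empty vector and blue for ABCC1. Circles, triangles and squares are the first, the second and the third experiments, and the dashed line marks equality. S1PR5 in the first experiment, with at most 1 count per library, is left out. S1PR1, S1PR3 and S1PR5 stood near the dashed line in the second and the third experiments, and in the first S1PR1 and S1PR3 were over 100 times above it.

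Of the kinases that make S1P, SPHK1 (ENSG00000176170, chr17:74372665-74383941, plus strand), found in the cytosol and at the plasma membrane, had 2.60, 2.39 and 2.25 CPM in the controls of the first experiment. The ABCC1-overexpressing cells had 1.70, 2.01 and 1.64 CPM, all below the controls. The log2FC was -0.46 (SE 0.14, edgeR adjusted p = 0.0204). This call was lost without control replicate 1 (adjusted p = 0.0864), control replicate 2 (0.0511) or ABCC1-overexpressing replicate 1 (0.0630), with DESeq2 (log2FC -0.45, adjusted p = 0.121), with the spread over all 18 libraries (-0.35, 0.783) and with the background covariate (-0.53, 0.215). The setting with the spread over all 18 libraries also filtered and scaled the genes over them. The log2FC was -0.28 in the second experiment (SE 0.31, edgeR adjusted p = 0.618) and -0.24 in the third (SE 0.20, adjusted p = 0.618), and the lines overlapped in both. Without 1 library the log2FC ran from -0.44 to -0.00228 in the second and from -0.31 to -0.11 in the third. Background reached 42.1% and 25.7% of the SPHK1 level in the controls and ABCC1-overexpressing cells of the second experiment and 54.3% and 51.1% in the third.

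SPHK2 (ENSG00000063176, chr19:49122548-49133974, plus strand), the kinase also found in the nucleus and mitochondria, had 28.1, 24.8 and 25.2 CPM in the controls and 19.5, 19.4 and 25.4 CPM in the ABCC1-overexpressing cells of the first experiment. ABCC1-overexpressing replicate 3 stood among the controls, and the log2FC of -0.27 (SE 0.10) was not called (edgeR adjusted p = 0.0624). It was called in 3 of 13 alternatives, which were DESeq2 (log2FC -0.27, adjusted p = 0.0490), no filter on low counts (-0.26, edgeR adjusted p = 0.00145) and the fit without that library (-0.42, adjusted p = 1.14e-05). The log2FC was -0.10 (SE 0.17, edgeR adjusted p = 0.750) in the second experiment and -0.31 (SE 0.17, adjusted p = 0.381) in the third. Exons on the opposite strand cover 11% (DBP), 4.09% (RPL18) and 11.3% (ENSG00000268093) of the SPHK2 exon bases, and the counts do not use strand.

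Both kinases had a log2FC below 0 in each of the 3 experiments. Their common log2FC was -0.26 for SPHK1 (SE 0.15, edgeR adjusted p = 0.265) and -0.16 for SPHK2 (SE 0.09, adjusted p = 0.270), and neither was called. The common effect of SPHK1 was called in 2 of 9 alternatives and that of SPHK2 in 4 of 9. In the fit of all 18 libraries the median log2FC was -0.16 over all genes but 0.14 over the genes tested in the first experiment. Fitted with those genes only, an alternative chosen after seeing the data, SPHK1 came to -0.43 (edgeR adjusted p = 0.0320), SPHK2 to -0.33 (0.00165) and S1PR3 to -0.64 (2.31e-04), and all 3 were called. With at least 10 counts required in every library, SPHK1 came to -0.44 (edgeR adjusted p = 0.0255) and SPHK2 to -0.34 (0.00108). SPHK2 was also called with DESeq2 (-0.25, adjusted p = 0.0169) and with RLE size factors (-0.25, edgeR adjusted p = 0.0360), and SPHK1 was not (-0.35 in both, adjusted p = 0.0627 and 0.114).

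**Figure D3:**
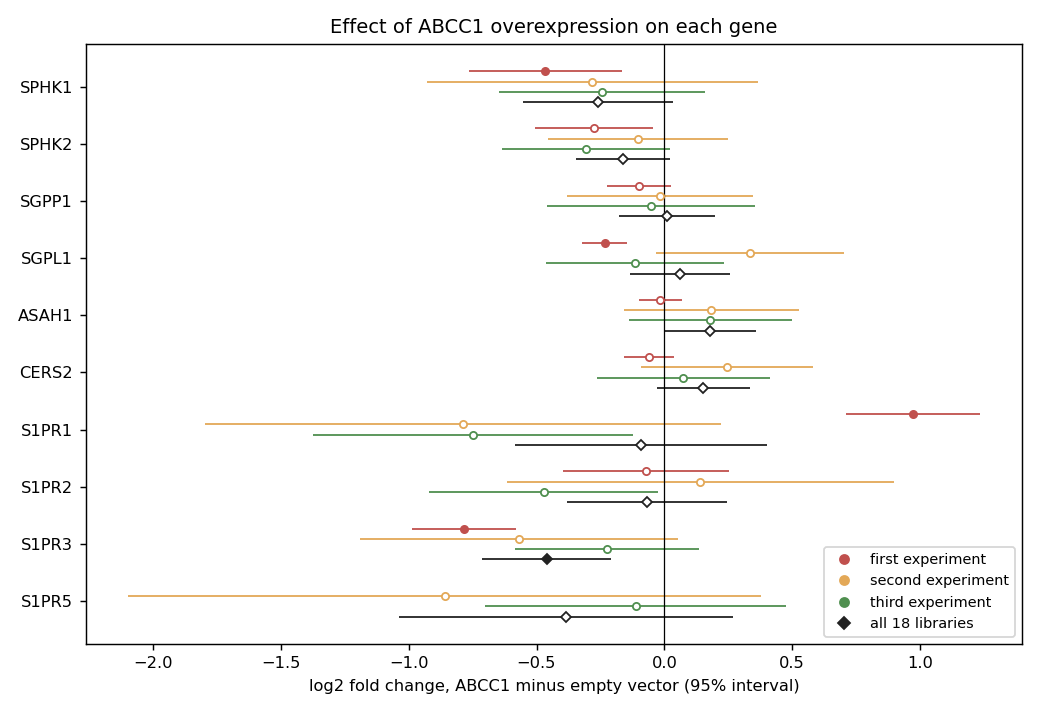
Log2 fold change of each gene, ABCC1-overexpressing minus empty vector control cells, with its 95% interval from edgeR. Red, yellow and green circles are the first, the second and the third experiments and black diamonds the fit of all 18 libraries. Filled symbols passed an adjusted p of at most 0.05. S1PR1 lies at 0.97 in the first experiment and at -0.79 and -0.75 in the others, and S1PR3 lies below 0 in each.

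Of the enzymes that remove S1P, SGPL1 (ENSG00000166224, chr10:72575717-72640930, plus strand), the lyase of the endoplasmic reticulum, had 153, 160 and 153 CPM in the controls of the first experiment and 134, 133 and 129 CPM in the ABCC1-overexpressing cells. All 3 ABCC1-overexpressing libraries were below the controls. The log2FC was -0.23 (SE 0.04, edgeR adjusted p = 9.21e-04). With the spread estimated, and the genes filtered and scaled, over all 18 libraries the log2FC was -0.13 and not called (edgeR adjusted p = 0.969). The median log2FC of the genes tested in this experiment was 0.11 in that setting and 0.00738 in the reported fit. SGPL1 was not called with the background covariate either (log2FC -0.19, edgeR adjusted p = 0.163). SGPL1 in the second experiment had 54.0, 81.4 and 61.7 CPM in the controls and 96.9, 77.4 and 74.4 CPM in the ABCC1-overexpressing cells. The lines overlapped, with a log2FC of 0.33 (SE 0.18, edgeR adjusted p = 0.278), the opposite sign to the first experiment. In the second experiment the median log2FC was -0.19 over all genes and 0.16 over the genes tested in the first. The SGPL1 means of the third experiment were 104 ± 15.1 and 95.9 ± 5.26 CPM (SD, n = 3, log2FC -0.11, edgeR adjusted p = 0.816). The difference between experiments was not called (edgeR adjusted p = 0.670).

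SGPP1 (ENSG00000126821, chr14:64150932-64194757, minus strand), the phosphatase that returns S1P to sphingosine, was not called in any experiment. Its log2FC was -0.10 in the first (SE 0.06, edgeR adjusted p = 0.200), -0.02 in the second (SE 0.18, adjusted p = 0.965) and -0.05 in the third (SE 0.21, adjusted p = 0.940). The means were 37.1 ± 2.04 and 34.7 ± 1.26 CPM (SD, n = 3) in the first experiment, 13.6 ± 1.81 and 13.5 ± 1.22 CPM in the second, and 11.98 ± 0.537 and 11.5 ± 3.10 CPM in the third. The 95% intervals ran from -0.22 to 0.03, from -0.38 to 0.35 and from -0.46 to 0.36.

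Of the genes on the ceramide side, CERS2 (ENSG00000143418, chr1:150933059-150947479, minus strand), the synthase of very long chain ceramides, had 194 ± 3.09 and 186 ± 9.51 CPM in the first experiment (SD, n = 3, log2FC -0.06, edgeR adjusted p = 0.328). Without ABCC1-overexpressing replicate 3 it was called (log2FC -0.10, adjusted p = 0.0110). The log2FC was 0.25 (edgeR adjusted p = 0.385) in the second experiment and 0.07 (adjusted p = 0.885) in the third. SETDB1, on the opposite strand, covers 20.4% of the CERS2 exon bases.

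ASAH1 (ENSG00000104763), the acid ceramidase of the lysosome, had 93.3 ± 1.49 and 92.4 ± 0.829 CPM in the first experiment (SD, n = 3), the smallest difference of the 9 genes tested (log2FC -0.02, 95% interval -0.10 to 0.07, edgeR adjusted p = 0.789). Its log2FC was 0.18 in both the second (edgeR adjusted p = 0.531) and the third experiment (adjusted p = 0.651). Without 1 library it ran from 0.0494 to 0.30 in the second and from 0.0768 to 0.32 in the third. The lowest value among the alternatives of the second was 0.0236. The common log2FC was 0.18 for ASAH1 (SE 0.09, edgeR adjusted p = 0.195) and 0.15 for CERS2 (SE 0.09, adjusted p = 0.294). For both, the values of the fit of all 18 libraries were near the median of 0.14 over the genes tested in the first experiment.

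Per kilobase of exon, the genes of the controls of the first experiment fell in the order CERS2 (41.7 ± 0.665 CPM per kb, SD, n = 3), SGPL1 (24.8 ± 0.640), ASAH1 (18.5 ± 0.295), SGPP1 (11.2 ± 0.616), SPHK2 (4.33 ± 0.302), S1PR2 (4.16 ± 0.658), S1PR3 (1.03 ± 0.0606), S1PR1 (0.599 ± 0.0441), SPHK1 (0.546 ± 0.0395) and S1PR5 (0.00295 ± 0.00510). The libraries of SPHK2 and S1PR2 overlapped, as did those of S1PR1 and SPHK1, and the other neighbours did not. In these controls the enzymes that degrade S1P or sit on the ceramide side thus lay above the kinases. In the second experiment SGPL1 (10.5 ± 2.26 CPM per kb) and CERS2 (10.5 ± 1.35) overlapped at the top of the controls, and the 4 lowest genes, SPHK1, S1PR5, S1PR1 and S1PR3, overlapped from one to the next. In the third, S1PR2 (9.26 ± 0.420 CPM per kb) stood above ASAH1 (6.47 ± 0.463) and SPHK2 (4.39 ± 0.544) above SGPP1 (3.62 ± 0.162) in the controls, and S1PR5, S1PR3 and S1PR1 overlapped at the bottom.

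The other genes of the pathway were taken as 50 genes in 5 lists. In the first experiment 6 rose and 4 fell of the 40 tested, against 37.6% of all genes called. In the second 2 rose and 0 fell of 50, against 1.25% and 0.458% of all genes, and in the third 2 rose and 0 fell, against 2.03% and 0.767%. For the common effect 8 rose and 3 fell of 50, against 8.72% and 3.72% of all genes. The same shares stand beside the counts per list below. In that fit the median log2FC was -0.16 over all genes and 0.14 over the genes tested in the first experiment. The latter hold 40 of the 50, and the share called among them alone was not taken. SPTLC2 and EGR1 were called higher in each of the 3 experiments, and the settings that lost a call are given with their values.

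Of the synthesis genes, which build ceramide from serine and a fatty acid or regulate that route, 3 of 11 rose for the common effect and 0 fell, with a median log2FC of 0.21. The median was -0.16 over all genes and 0.14 over the genes tested in the first experiment, which hold 10 of the 11. SPTLC2, a catalytic subunit of serine palmitoyltransferase, the entry step of the pathway, had a log2FC of 0.38 in the first experiment (edgeR adjusted p = 1.60e-04), 0.78 in the second (0.0215) and 0.72 in the third (0.00330). Its CPM in the first experiment was 81.4, 76.3 and 82.7 in the controls and 107, 105 and 99.4 in the ABCC1-overexpressing cells. In the second it was 28.9, 41.2 and 30.4 against 58.8, 60.4 and 54.1. In the third it was 37.0, 43.4 and 28.8 against 60.4, 56.6 and 63.6. Every ABCC1-overexpressing library was above every control of its experiment. The common log2FC was 0.69 (SE 0.09, edgeR adjusted p = 3.90e-07). The call of the first experiment was lost with the spread estimated over all 18 libraries (log2FC 0.48, edgeR adjusted p = 0.0833). That of the second was lost with the background covariate (log2FC 0.64, edgeR adjusted p = 0.680), without control replicate 3 (0.156) and without ABCC1-overexpressing replicate 2 (0.106). That of the third was lost with the background covariate (log2FC 0.55, edgeR adjusted p = 0.0763), without control replicate 3 (0.119) and without ABCC1-overexpressing replicate 3 (0.0512). The common call held in 9 of 9 alternatives. KDSR, the next enzyme of the pathway, had a common log2FC of 0.41 (SE 0.09, edgeR adjusted p = 0.00101), and DEGS1, the desaturase that makes ceramide, had 0.28 (SE 0.10, adjusted p = 0.0439). The common call of KDSR held in 9 of 9 alternatives and that of DEGS1 was lost in 7 of 9, with 0.11 (adjusted p = 0.260) when only the genes tested in the first experiment were fitted.

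Of the genes of ceramide use and sphingolipid breakdown, 2 of 13 rose and 0 fell for the common effect, with a median log2FC of 0.19. SGMS1, a sphingomyelin synthase, had a common log2FC of 0.32 (SE 0.09, edgeR adjusted p = 0.00865), and SMPD4, a sphingomyelinase, had 0.28 (SE 0.09, adjusted p = 0.0342). With only the genes tested in the first experiment neither was called (0.15, adjusted p = 0.123, and 0.11, adjusted p = 0.165), and the calls were lost in 5 and 6 of 9 alternatives.

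Of the other genes of S1P and sphingosine turnover, 0 of 15 rose and 2 fell for the common effect, with a median log2FC of -0.01. PLPP3, a lipid phosphatase of the cell surface that can dephosphorylate S1P, had a log2FC of -0.92 in the first experiment (edgeR adjusted p = 0.00312) and a common log2FC of -0.80 (SE 0.17, adjusted p = 8.84e-04). Its call in the first experiment was lost with the spread over all 18 libraries (log2FC -0.83, edgeR adjusted p = 0.135) and with the background covariate (-0.99, 0.0945). SPHKAP, a protein that binds a sphingosine kinase and an anchor of protein kinase A, had -0.77 (SE 0.22, adjusted p = 0.0114), and was not tested in the first experiment for its low counts. Without that experiment it was -0.58 and not called (edgeR adjusted p = 0.0966). Of the other receptors, exporters and carriers, 1 of 6 rose and 1 fell, with a median log2FC of -0.09. ABCA1, on this list, was called higher in the first experiment (log2FC 0.72, edgeR adjusted p = 0.00103). It was not called in the second (-0.23) and the third (-0.36), where background reached 43.6% to 76.5% of its level per kilobase. Like that of S1PR1, its effect differed between experiments (edgeR adjusted p = 0.0288). SPNS2, the dedicated S1P exporter, had a common log2FC of 0.58 (SE 0.18, edgeR adjusted p = 0.0245), and with the genes tested in the first experiment only it was not called (0.40, adjusted p = 0.0674), as in 7 of 9 alternatives. S1PR4, a receptor of blood cells, had -1.09 (SE 0.33, adjusted p = 0.0197), with at most 1 count in any library of the first experiment, and lost its call in 2 of 7 alternatives. In the second and the third experiments background reached 53.4% to 97.4% of the S1PR4 level per kilobase in either line, 87.2% to 117% of that of SPHKAP, 54.9% to 71.1% of that of PLPP3 and 30.7% to 123% of that of SPNS2. Its part in these values was not tested.

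Of the genes known to respond to S1P receptors, which also respond to many other signals, 2 of 5 rose and 0 fell for the common effect, with a median log2FC of 0.24. Of all genes, 8.72% were called higher and 3.72% lower. CCN1 (0.24), CCN2 (-0.21) and ANKRD1 (-0.68) were not called (edgeR adjusted p = 0.554, 0.769 and 0.189). CCN1 was called higher in the first experiment (log2FC 0.85, edgeR adjusted p = 0.00151) and stood at -0.55 in the third. The median of the list was -0.30 in the third. EGR1, an immediate early transcription factor, had 191, 166 and 136 CPM in the controls of the first experiment and 303, 288 and 365 CPM in the ABCC1-overexpressing cells. In the second it had 46.9, 24.8 and 28.9 against 93.9, 73.2 and 112 CPM, and in the third 38.2, 49.8 and 30.1 against 179, 198 and 209 CPM. Every ABCC1-overexpressing library was above every control of its experiment. The log2FC was 0.96 (edgeR adjusted p = 4.75e-04), 1.47 (0.00118) and 2.31 (6.60e-17), and it differed between experiments (adjusted p = 0.0121). The call of the second experiment was lost without control replicate 3 (adjusted p = 0.0710). FOS, a partner of the JUN proteins, had a common log2FC of 0.48 (SE 0.16, edgeR adjusted p = 0.0304), and without the first experiment it was 0.39 (adjusted p = 0.306). This call was lost in 6 of 9 alternatives. Background came to at most 13.2% of the EGR1 level and at most 41.0% of the SPTLC2 level in any experiment and line. Of the FOS level it came to 64.4% in the controls and 24.2% in the ABCC1-overexpressing cells of the second experiment and to 104% and 64.2% in the third, and of the KDSR level to 53.7% and 21.1% and to 108% and 63.1%.

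**Figure D4:**
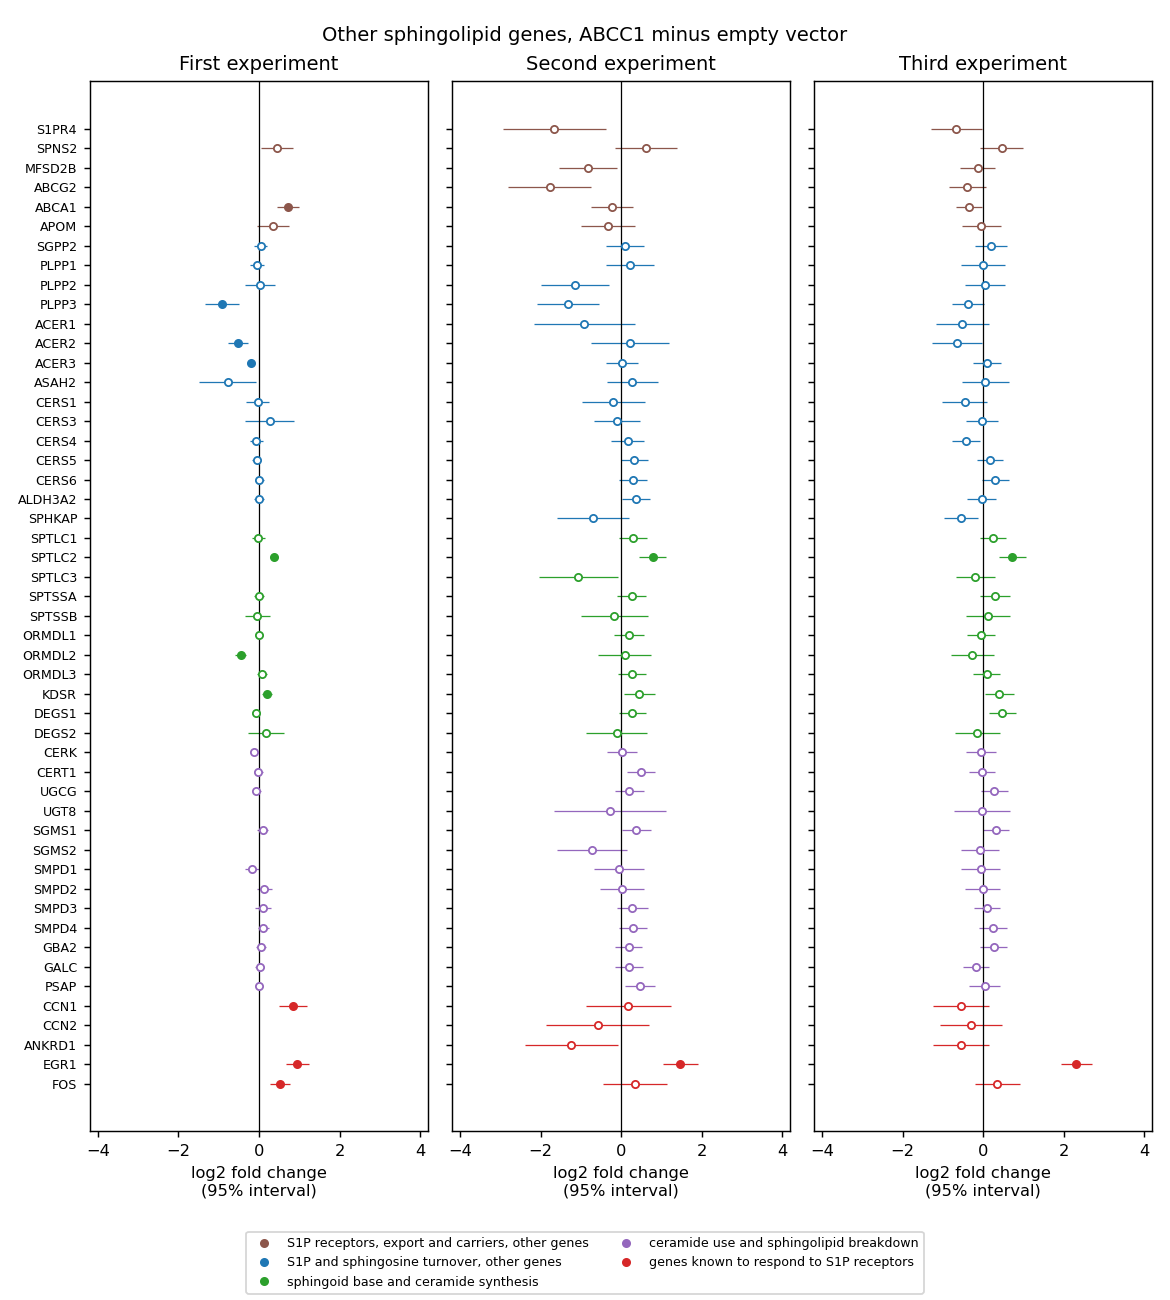
Log2 fold change, ABCC1-overexpressing minus empty vector control cells, of the other sphingolipid genes tested in each experiment, with 95% intervals from edgeR. Colours mark the 5 lists and filled points passed an adjusted p of at most 0.05. SPTLC2 and EGR1 are filled and above 0 in all 3 panels.

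The genes most like S1PR3 over the 18 libraries, with each experiment centred on its own mean of log2(CPM + 0.1), were PRKD1, a protein kinase (Pearson r = 0.92), BHLHE22, a neuronal transcription factor (r = 0.89), and ZNF385D, a zinc finger protein (r = 0.88), among 46224 genes compared. Their common log2FC was -0.81, -0.80 and -0.92. The difference between the lines enters r, so that genes with a like difference are chosen by it. These values describe shared libraries and shared depth and carry no test.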

How the data were processed

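RNA was sequenced from 18 libraries of BE(2)-m17 cells. The authors demultiplexed reads with bcl2fastq 2.18, aligned them with STAR 2.7.3a to GRCh37 with the vector and spike-in sequences added, and deposited read counts per gene from featureCounts (Subread 2.0.0), as raw, unstranded counts of read pairs on exons. Tool versions are per the submitters' processing notes. Pairs that overlap more than 1 gene were left out by that counting.

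Each experiment was tested on its counts with edgeR 4.0.16 in R 4.3.3 (TMM, filterByExpr at a minimum count of 10, robust quasi-likelihood test, two-sided, Benjamini-Hochberg adjustment over all genes tested, called at 0.05). The 18 libraries were also fitted together with the experiment as a covariate, for the common effect, and with the interaction of experiment and line, for the difference between experiments. CPM was scaled with TMM, and 0.1 CPM was added for logs. Depth was 8866994 to 57937653 assigned pairs per library. Pairs of libraries within a group differed by 1.53 to 26.1 per degree of freedom in a chi-square test of their counts, more than counting noise, so none was taken for another deposited again. This does not tell separate cultures from repeat preparations. The scripts were tested on simulated data.

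The members and gene lists were chosen with earlier results of these data known. All 10 members were named, with up to 3 other genes per list of smallest adjusted p among those called for the common effect, every gene called the same way in all 3 experiments, and the 3 genes most like the member of smallest p. ABCA1, CCN1, CCN2 and ANKRD1 were named besides. Alternatives were DESeq2 1.42.0, RLE size factors, no filter, at least 10 counts in every library, the replicate block, a spread over all 18 libraries (with the filter and the scaling over them), the background as a covariate, and each library or experiment left out. A fit of only the genes tested in the first experiment was added after seeing the data. PECAM1, listed as an endothelial marker, was not matched and not used here. 1 gene of the lists is not reported here and was left out of their counts.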

Additional observations from a re-analysis of the deposited data

Results flagged for a closer look

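The effect of ABCC1 on S1PR1 differed between experiments by a test of that difference (edgeR adjusted p = 0.0258), which was not called with the replicate block (adjusted p = 0.0946). The log2FC was 0.97 in the first experiment, -0.79 in the second and -0.75 in the third. In the second it was -0.17 without control replicate 1 (edgeR adjusted p = 0.925) and -0.19 with the background covariate (0.990). S1PR1 was higher in 3 of 3 ABCC1-overexpressing libraries of the first experiment than in every control, and in the second and the third experiments the lines overlapped. According to the methods the first experiment used another library kit, although its labels also name that of the others, and kit and experiment cannot be told apart. Olfactory receptor background was under 1% of the S1PR1 level in the first experiment and 61.7% to 114% of it in the others.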

How the results depend on the processing

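In the first experiment the calls of S1PR1 and S1PR3 held in 13 of 13 alternatives each, with log2FC of 0.88 to 1.08 and of -0.86 to -0.68 and adjusted p of 4.27e-10 to 0.0494 and of 5.16e-13 to 0.0369. The number of called members was 2 with the spread estimated over all 18 libraries and 2 with the background covariate, where SPHK1 and SGPL1 were lost, and 3 to 6 without 1 library. The number of other sphingolipid genes called was 3 and 3 under these settings and 9 to 13 without 1 library. The setting with the spread over all 18 libraries also filtered and scaled the genes over them, so the spread was not varied alone. In the second and the third experiments 0 members were called in any alternative. The number of other genes called in the second was 5 with DESeq2, 4 with RLE size factors, 4 without a filter, 4 with a minimum of 10 counts per library, 9 with the spread over all 18 libraries, 1 with the background covariate, 4 with only the genes tested in the first experiment, and 0 to 4 without 1 library. In the third it was 1 with the background covariate, 4 with only the genes tested in the first experiment, and 1 to 4 without 1 library. The cause was not tested. The number of members called for a common effect was 2 with DESeq2, 2 with RLE size factors, 3 with a minimum of 10 counts per library, 3 with only the genes tested in the first experiment, and 0 without the first experiment. With the background covariate, which moves with the line, 9 of all genes were called in the second experiment.

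A sign turned in 53 cases, and in none of them was the reported value or the alternative called. The setting with the spread over all 18 libraries also scaled the genes over them. In the first experiment the median log2FC of the genes tested there was 0.11 in this setting and 0.00738 in the reported fit. With the spread over all 18 libraries, the log2FC of the first experiment was 0.00313 for SGPP1, 0.0284 for S1PR2, 0.0445 for CERS2 and 0.0862 for ASAH1, and that of the third was 0.0339 for SGPP1. With the background covariate it was 0.0491 for S1PR2 in the first experiment, 0.52 for SPHK1, -0.0319 for SGPL1, 0.84 for S1PR5 and -0.0439 for CERS2 in the second, and 0.00252 for SPHK1, 0.00319 for S1PR3, -0.16 for CERS2 and -0.0824 for ASAH1 in the third. In the second experiment it was 0.0367 for SPHK2 and 0.13 for SGPP1 with DESeq2, 0.00723 and 0.0952 with RLE size factors, 0.0416 for SGPP1 without a filter and -0.0236 for S1PR2 with only the genes tested in the first experiment. In the third SGPP1 was at 0.0308 with DESeq2 and 0.0159 with RLE size factors. In the fit of all libraries, SGPL1 and SGPP1 were at -0.0313 and -0.0801 with DESeq2, -0.0316 and -0.0811 with RLE size factors, -0.12 and -0.17 with a minimum of 10 counts per library, and -0.11 and -0.16 with only the genes tested in the first experiment. CERS2 was at -0.0317 and ASAH1 at -0.00253 with that minimum, and CERS2 at -0.0230 with only the genes tested in the first experiment. Without the second experiment SGPL1 was at -0.0981, SGPP1 at -6.68e-04 and S1PR1 at 0.27, and without the third SGPP1 was at -0.0291, S1PR1 at 0.17 and S1PR2 at 0.0609. Without 1 library, log2FC ran from -0.23 to 0.0249 for S1PR2 in the first experiment. In the second it ran from -0.14 to 0.0270 for SPHK2, -0.0811 to 0.10 for SGPP1, -0.22 to 0.42 for S1PR2 and -1.29 to 0.0884 for S1PR5. In the third it ran from -0.18 to 0.00661 for SGPL1, -0.28 to 0.15 for SGPP1 and -0.38 to 0.12 for S1PR5.

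Same-numbered libraries of the 2 lines did not deviate together, with mean correlations of -0.04, -0.06 and 0.05 in the first, the second and the third experiments, so the numbers were not taken to pair them. With the replicate block, 0 members were called for a difference between experiments, S1PR1 having an adjusted p of 0.0946, and S1PR4, SPNS2 and DEGS1 lost their common calls (adjusted p = 0.0600, 0.0542 and 0.0526). It moved no count of called members within an experiment by over 1.5 times. S1PR5 had at most 1 count per library in the first experiment, and background reads limit S1PR1, S1PR3 and S1PR5 in the second and the third.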
